A study of Homo sapiens with 6 samples.

Results

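Long intergenic noncoding RNAs named LINC followed by digits were examined in RNA sequencing libraries of cells labelled MDA-MB-468, an established human line of basal-like, triple-negative breast cancer. The table of counts holds 1549 such names among 56505 rows, and 219 of them form the set described here. They were selected on their measured level: a mean of at least 1 CPM (the count scaled by the total of its column) in the 3 libraries with a hairpin against cytokeratin 5 or in the 3 control libraries. Another 13 names past that level lie on chromosome X or Y and were left out, and 1317 names did not reach it. Of the 1549 names, 537 had no count in any library. Because the level chose the set, membership itself is no result. The 219 RNAs were split into 106 that reached 1 CPM in both groups, 40 that reached it only in shCK5 and 73 that reached it only in shControl. For the 106, inclusion does not need a difference between the groups, and the test of each gene is given. For the other 113, the rule puts a difference into the set, so their levels and ratios are given as a description with no test.

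The control cells carried the vector pLK0-shControl (shControl), and the others a single hairpin vector against cytokeratin 5, the protein of the gene KRT5 (shCK5-22 in the titles, shCK5 here). Both were kept in Dulbecco's medium with 10% fetal bovine serum and had no other treatment. Separate cultures are not stated for the replicates, and every p-value therefore reflects library spread that could be technical. A hairpin-specific difference and a difference due to KRT5 cannot be told apart with a single hairpin.

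Total counts per library lay between 68810882 and 83594772. Levels are given from here on as CPM by the TMM-scaled library size, where TMM is edgeR's correction for differences in composition between libraries, except where column totals are named. Each SE is the size of the log2 fold change divided by the square root of the F statistic of the edgeR test. It is an approximation and can be far too small where 1 group holds few counts. KRT5 had 2017 to 2060 CPM in shControl and 15.53 to 17.21 CPM in shCK5, so the targeted gene follows the labels (log2 fold change -6.96, SE 0.0369, adjusted p = 1.15e-34 in the quasi-likelihood test of edgeR, adjusted after Benjamini and Hochberg over all genes tested). RB1 and SMAD4 do not: both genes are known to be deleted in MDA-MB-468, and their mean levels were 1.996 and 0.2346 CPM in shControl but 101.0 and 16.86 CPM in the libraries labelled shCK5. All 9 epithelial markers, among them the targeted KRT5, fell in shCK5, with summed levels of 9219 to 9465 CPM in shControl and 1931 to 1954 CPM in shCK5. Over all genes tested, 40.9% were higher and 41.7% lower. The summed level of 10 fibroblast markers was 25.71 to 27.68 CPM in shControl and 988.1 to 1012 CPM in shCK5, nearly all of it VIM. Of the 4 tested, VIM and PDGFRB were higher (log2 fold changes 7.16 and 3.19) and COL1A1 and FAP lower (-0.56 and -4.56). THY1 had no count. Summed leukocyte markers lay at 4.977 to 6.121 against 0.7344 to 1.033 CPM, with CD3D, MS4A1, CD68 and NKG7 at 0. Summed endothelial markers lay at 4.513 to 6.452 against 6.36 to 7.193 CPM, and of these 6 genes 3 were higher and 3 lower. Whether the cells of both groups are the same line was not tested, and the effect of the hairpin and any other difference between these cells cannot be told apart in every comparison that follows. All libraries of the shCK5 group share this feature, so no result can be given without them.

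Long intergenic noncoding RNAs are transcribed by RNA polymerase II from their own promoters, capped, usually spliced and often polyadenylated, but most are not translated. Many are made in few cell types and at low level, many stay in the nucleus, and the nuclear exosome degrades a large part of what is transcribed. A few act on chromatin or on neighbouring genes, some host small RNAs, and some have turned out to encode small peptides, but for most names no function is known.

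Promoters are shown first for 8 RNAs on which the results turn, because the sets differed in promoter type. Each run of 300 bases reads 5′ to 3′ on the strand of the gene, from 250 bases before to 50 bases after the start that RefSeq gives on GRCh38.p14. Capitals mark matches of 4 motifs searched on both strands: the AP-1 site TGANTCA, the E-box CACCTG bound by ZEB and SNAI factors, the TEAD site GGAATG and the TATA box TATAAA. The first 3 promoters belong to RNAs past 1 CPM in both groups. They are the promoter of LINC00704, also called MANCR (chr10:4678021-4678320, minus strand), that of LINC00665 (chr19:36331669-36331968, minus strand) and that of LINC00662 (chr19:27793891-27794190, minus strand).
LINC00704: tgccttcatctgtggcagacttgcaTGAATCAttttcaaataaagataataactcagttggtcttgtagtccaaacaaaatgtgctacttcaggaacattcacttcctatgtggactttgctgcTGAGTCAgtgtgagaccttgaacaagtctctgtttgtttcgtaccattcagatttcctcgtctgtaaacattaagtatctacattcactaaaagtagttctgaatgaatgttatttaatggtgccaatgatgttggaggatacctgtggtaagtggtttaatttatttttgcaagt
LINC00665: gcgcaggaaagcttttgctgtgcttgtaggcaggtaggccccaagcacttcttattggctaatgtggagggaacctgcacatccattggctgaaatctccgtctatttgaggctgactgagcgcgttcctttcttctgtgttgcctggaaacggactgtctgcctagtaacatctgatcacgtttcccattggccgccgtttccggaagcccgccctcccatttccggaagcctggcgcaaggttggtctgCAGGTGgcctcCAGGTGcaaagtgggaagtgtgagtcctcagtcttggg
LINC00662: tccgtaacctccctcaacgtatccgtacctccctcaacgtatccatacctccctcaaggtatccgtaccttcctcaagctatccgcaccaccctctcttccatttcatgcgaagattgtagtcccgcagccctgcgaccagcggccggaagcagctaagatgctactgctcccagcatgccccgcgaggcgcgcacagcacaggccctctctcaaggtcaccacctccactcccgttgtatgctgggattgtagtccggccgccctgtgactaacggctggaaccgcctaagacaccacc

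The next 3 promoters belong to the most abundant RNAs of the shCK5-only set with a promoter in the RefSeq table: LINC01234 (chr12:113773634-113773933, minus strand), LINC00941 (chr12:30795431-30795730, plus strand) and LINC01116 (chr2:176637560-176637859, minus strand).
LINC01234: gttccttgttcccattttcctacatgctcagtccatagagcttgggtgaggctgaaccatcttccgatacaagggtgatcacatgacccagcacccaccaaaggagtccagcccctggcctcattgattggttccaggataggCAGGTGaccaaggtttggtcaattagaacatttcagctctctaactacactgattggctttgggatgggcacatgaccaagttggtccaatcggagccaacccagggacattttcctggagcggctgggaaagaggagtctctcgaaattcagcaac
LINC00941: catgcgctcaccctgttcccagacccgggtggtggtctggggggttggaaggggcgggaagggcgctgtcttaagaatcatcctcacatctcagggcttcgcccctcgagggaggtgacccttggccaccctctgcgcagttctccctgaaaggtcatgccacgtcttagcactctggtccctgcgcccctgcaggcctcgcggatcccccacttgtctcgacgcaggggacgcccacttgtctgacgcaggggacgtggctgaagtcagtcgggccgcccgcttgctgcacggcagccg
LINC01116: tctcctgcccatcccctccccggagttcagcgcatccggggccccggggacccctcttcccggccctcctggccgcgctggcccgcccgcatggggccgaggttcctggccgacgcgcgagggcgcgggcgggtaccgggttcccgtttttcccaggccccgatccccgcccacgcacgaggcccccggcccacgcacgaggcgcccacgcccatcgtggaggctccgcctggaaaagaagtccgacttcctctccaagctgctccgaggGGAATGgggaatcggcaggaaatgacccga

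The last 2 belong to the most abundant RNAs of the shControl-only set, LINC01133 (chr1:159960974-159961273, plus strand) and LINC02015 (chr3:177816615-177816914, plus strand).
LINC01133: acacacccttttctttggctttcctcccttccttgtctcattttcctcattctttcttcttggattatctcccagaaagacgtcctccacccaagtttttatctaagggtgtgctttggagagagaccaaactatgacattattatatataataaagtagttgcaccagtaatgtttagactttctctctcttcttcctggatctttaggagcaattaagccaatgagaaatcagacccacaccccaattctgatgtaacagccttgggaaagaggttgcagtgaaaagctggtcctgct
LINC02015: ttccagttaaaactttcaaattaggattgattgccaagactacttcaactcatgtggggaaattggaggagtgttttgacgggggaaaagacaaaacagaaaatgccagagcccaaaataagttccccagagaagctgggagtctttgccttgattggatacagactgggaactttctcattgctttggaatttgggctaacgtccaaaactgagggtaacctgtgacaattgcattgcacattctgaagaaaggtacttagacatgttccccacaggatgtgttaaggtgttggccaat

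The LINC00704 promoter holds 2 AP-1 matches, those of LINC00665 and LINC01234 hold 2 and 1 E-box matches, and that of LINC01116 holds 1 TEAD match. The other 4 hold none of the 4 motifs in this window. Promoters of the table could be found for 158 of the 219 RNAs. An AP-1 match was present in 14.6% of them, against 7.76% of all 27305 promoters. The share was 15.4% for the RNAs past 1 CPM in both groups, 17.9% for the shCK5-only set (5 of 28) and 11.5% for the shControl-only set (6 of 52). E-box matches were present in 22.8% of the members' promoters and 20.6% of all, with 30.8%, 10.7% and 17.3% in the same 3 sets. TEAD matches were present in 15.2% and 14.0% of all, with 10.3%, 25.0% and 17.3% in the 3 sets, and TATA boxes in 13.3% and 12.0%. CpG content differed more between the sets. An observed to expected CpG ratio above 0.6, as in CpG islands, was found in 57.7% of the promoters of RNAs past 1 CPM in both groups, in 21.4% of the shCK5-only and in 17.3% of the shControl-only promoters, against 48.9% of all promoters. Among those printed, LINC00662, LINC01116 and LINC00941 lie above that ratio (0.847, 0.873 and 0.643), and LINC01133 has a ratio of 0.0806. LINC01667, next in abundance in the shControl-only set and not printed, also lies above it (0.797). These shares are descriptions: a match is not a bound site, and the sets were formed from levels in these libraries.

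Of the 219 RNAs, 217 have a gene model in GENCODE v29 on GRCh38, with a median span of 26570 bases, a median of 2692 exonic bases and a median of 4 exons in the longest transcript. The annotation calls 168 of them lincRNA, 18 processed transcripts and 13 antisense. It places 6 names among protein-coding genes: LINC00094 (now BRD3OS), LINC00116 (MTLN), LINC00176, LINC00854, LINC00959 and LINC01125. Another 8 are transcribed pseudogenes, LINC00888 among them. Exons of 66 members lie over exons of another gene, and as no strand setting is given for the counting, reads of these members and of the overlapping gene cannot be told apart. RNAs past 1 CPM in both groups had shorter genes and closer neighbours than the others. Their median span was 19060 bases, against 36800 bases in the shCK5-only and 27030 bases in the shControl-only set. Their median distance to the nearest protein-coding gene was 9416 bases, against 38840 and 35120 bases.

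**Figure D1:**
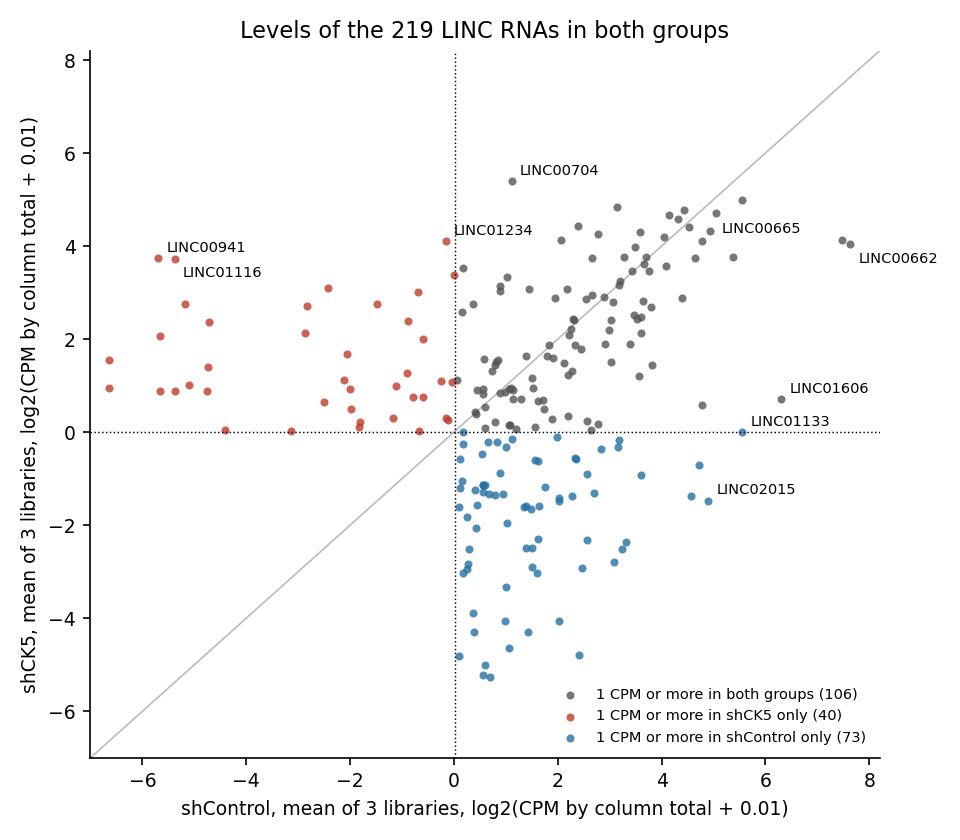
Mean level of each of the 219 LINC RNAs in shControl (horizontal axis) and shCK5 (vertical axis), as log2 of CPM by column total plus 0.01; each point is 1 RNA, dotted lines mark 1 CPM and the grey line marks equal levels. Grey points (106) pass 1 CPM in both groups, red points (40) only in shCK5 and blue points (73) only in shControl, and LINC00662 and LINC00665 lie far right of the other grey points.

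Together the 219 RNAs took a smaller part of the reads in shCK5, which is a description, since level chose them. Their summed level was 1580, 1574 and 1570 CPM in shControl and 1065, 1065 and 1056 CPM in shCK5. A pair of RNAs accounted for most of that gap: LINC00662 and LINC00665 made up 22.0% to 24.4% of the sum in shControl and 3.35% to 3.4% in shCK5. Without the pair, sums were 1190 to 1231 CPM and 1021 to 1029 CPM. Per kilobase of exon, the highest levels in shControl belonged to LINC00662 (23.8 CPM per kilobase), LINC00665 (23.6), LINC01606 (17.9), LINC01004 (14.3) and LINC01133 (14.1). LINC00662 ranged over the libraries from 22.2 to 26.7 and LINC00665 from 23.1 to 23.9 CPM per kilobase, so their order was not separated by the spread. In shCK5 the order was led by LINC00704 (23.1 CPM per kilobase, libraries 22.4 to 23.8), ahead of LINC00843 (11.0), LINC01004 (11.0) and LINC00857 (9.51). LINC00843 and LINC01004 overlapped in their ranges, 10.4 to 11.8 and 10.6 to 11.3, whereas LINC00704 lay above every one of these.

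Of the 106 RNAs past 1 CPM in both groups, 39 were higher in shCK5, 46 were lower and 21 did not pass the threshold. Calls here mean an adjusted p under 0.05 in that test, over all 19567 genes. The share called, 80.2%, lies under that of all 12285 genes past 1 CPM in both groups, of which 88.5% were called, 48.6% as higher and 39.9% as lower. Those genes were mostly more abundant: 8285 of them had 20 CPM or more in the higher group, against 18 of the 106. No share at matched level was computed, here or for the overlap of the groups, so the lower share is not read as a trait of LINC RNAs. Over all genes tested, 40.9% were called higher and 41.7% lower. The groups did not overlap for 85 of the 106 RNAs, and for 89.5% of the 12285 genes. The median log2 fold change of the 106 was -0.02, against 0.10 for the 12285 genes, and the median size of the change was 0.70, against 0.62. More than 2-fold differences were found for 17 RNAs that rose and 18 that fell, with log2 fold changes from -5.46 to 4.43. Values were tight within a group: the median coefficient of variation over the 3 libraries was 6.91% in shControl and 7.17% in shCK5.

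LINC01606 showed the lowest log2 fold change of the 106. This RNA lies on chromosome 8 at 57142689 to 57240298 (GENCODE v29, GRCh38, plus strand) and is annotated with up to 8 exons. Its level was 82.04, 65.92 and 78.09 CPM in shControl and 1.839, 1.364 and 1.936 CPM in shCK5. All 3 control values lie more than 10 times above the highest shCK5 value. It fell by 5.46 on the log2 scale (SE 0.0907, edgeR adjusted p = 1.26e-25). An exon of LINC01606 overlaps another annotated gene, so part of its reads may belong to that gene.

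LINC00649, on chromosome 21 at 33915534 to 33977691, fell from 25.99, 25.85 and 26.49 CPM to 1.864, 1.22 and 1.631 CPM (log2 fold change -4.05, SE 0.0905, edgeR adjusted p = 6.1e-23). Its annotated exons overlap those of ATP5PO, a gene of the mitochondrial ATP synthase, and the annotation classes it as antisense. The control values of LINC00649 lie within 1 CPM of each other and the groups are far apart.

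LINC00662 and LINC00665, both on chromosome 19, are widely studied in tumours, and LINC00665 has been described to encode a small peptide in triple-negative breast cancer. LINC00662 (27684580 to 27793940, minus strand) had 177.0, 212.8 and 178.5 CPM in shControl and 16.46, 17.34 and 18.0 CPM in shCK5. Replicate 2 of shControl stood above the other two, and the spread of the controls is small beside the distance between groups. It fell by 3.46 on the log2 scale (SE 0.0564, edgeR adjusted p = 8.82e-26). LINC00665 (36313067 to 36331718, minus strand) had 172.1, 171.5 and 166.7 CPM in shControl and 19.75, 18.36 and 17.43 CPM in shCK5. It fell by 3.20 on the log2 scale (SE 0.0386, edgeR adjusted p = 1.92e-28). Its promoter, printed above, holds 2 E-box matches.

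LINC00243 on chromosome 6 had 6.362, 5.203 and 6.285 CPM in shControl and 1.134, 0.9967 and 1.092 CPM in shCK5. LINC01226 on chromosome 1 had 6.362, 6.632 and 6.633 CPM in shControl and 1.058, 1.469 and 1.023 CPM in shCK5. Both ended just above the level that the set requires, and their groups did not overlap. Their log2 fold changes were -2.47 (SE 0.132) and -2.46 (SE 0.13), with edgeR adjusted p of 5.81e-15 and 4.51e-15. LINC01226 shares exonic bases with TINAGL1, whose level went the other way (log2 fold change 0.47, SE 0.0262).

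LINC00704 showed the highest log2 fold change of the 106. It is known as MANCR, the mitotically associated long noncoding RNA, and has been studied for its part in genome stability in breast cancer. It lies on chromosome 10 at 4650185 to 4678154 (minus strand). Its level was 2.121, 2.031 and 2.021 CPM in shControl and 45.66, 43.04 and 44.26 CPM in shCK5. The libraries of each group lie close together and the groups are separated by more than 20-fold. It rose by 4.43 on the log2 scale (SE 0.0634, edgeR adjusted p = 6.11e-27). Part of its exons overlaps LINC00705.

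LINC00888, now SNHG33, a name for hosts of small nucleolar RNAs, had 1.074, 1.429 and 0.6968 CPM in shControl and 13.29, 10.53 and 12.65 CPM in shCK5. The control values spread about 2-fold, well below the distance to the lowest shCK5 value. It rose by 3.50 on the log2 scale (SE 0.143, edgeR adjusted p = 2.03e-17). The annotation classes it as a transcribed unprocessed pseudogene, so reads of its parent gene may be among its counts.

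LINC02009, LINC01410, LINC01443 and LINC01003 followed, all from between 1 and 2 CPM in the mean of shControl. LINC02009, on chromosome 3 at 46416524 to 46423591, had 1.262, 0.8023 and 1.087 CPM in shControl and 6.828, 6.085 and 5.987 CPM in shCK5. LINC01410 had 1.221, 1.279 and 1.171 CPM in shControl and 7.193, 7.016 and 7.134 CPM in shCK5. In neither RNA did the groups overlap. LINC01443 had 2.309, 1.805 and 1.7 CPM in shControl and 10.61, 11.11 and 10.07 CPM in shCK5. LINC01003 had 1.396, 1.956 and 1.923 CPM in shControl and 9.019, 10.07 and 8.766 CPM in shCK5. Log2 fold changes of the 4 RNAs were 2.59, 2.54, 2.45 and 2.40, each with an SE of 0.105 to 0.139, and the highest of their edgeR adjusted p values was 6.59e-15, for LINC02009.

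At the other end stood RNAs whose levels hardly differed. LINC00313 had 2.161, 1.855 and 1.951 CPM in shControl and 2.129, 2.125 and 1.687 CPM in shCK5. LINC01836 had 4.725, 4.388 and 4.222 CPM in shControl and 4.812, 4.079 and 4.397 CPM in shCK5. LINC01322 had 2.174, 1.855 and 2.062 CPM in shControl and 1.864, 2.256 and 1.936 CPM in shCK5. In all 3 the values of the groups are interleaved, and the edgeR adjusted p values were 0.983, 0.969 and 0.965. Their SEs of 0.104 to 0.155 on the log2 scale show how large a change could still have been missed. LINC01002, the other member among the 4 with most counts, had 47.46, 43.84 and 43.25 CPM in shControl and 33.18, 33.85 and 32.92 CPM in shCK5, a decrease by 0.43 (SE 0.0417, edgeR adjusted p = 8.89e-10).

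**Figure D2:**
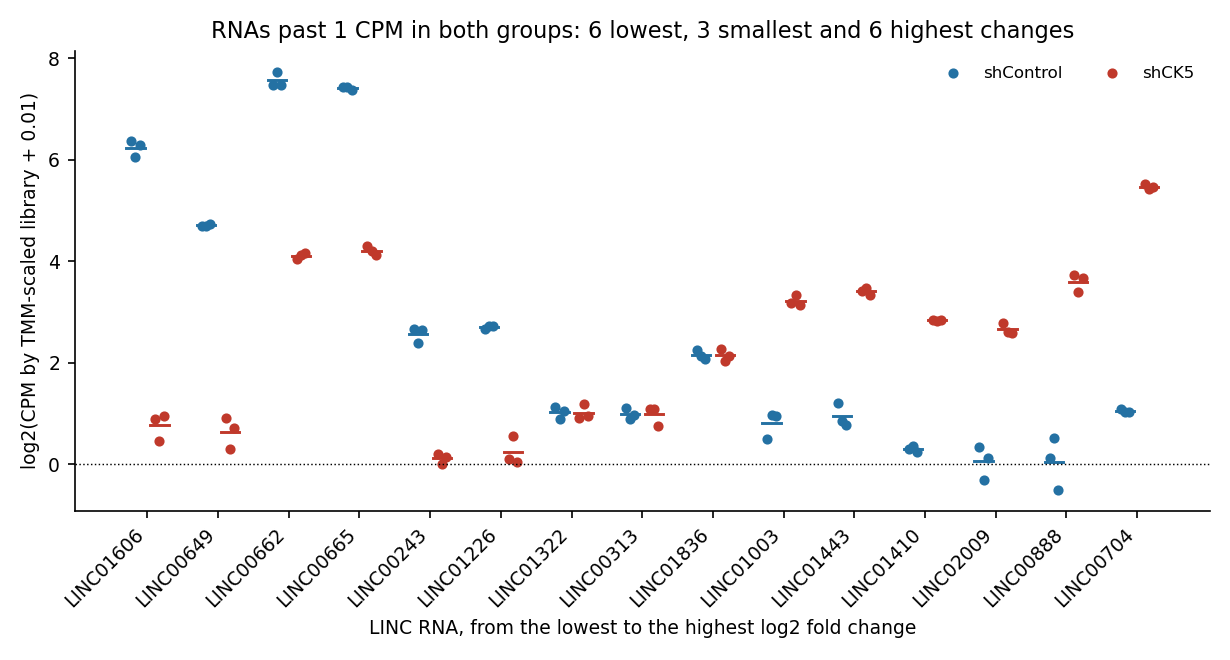
Level of 15 RNAs past 1 CPM in both groups in each of the 6 libraries, as log2 of TMM-scaled CPM plus 0.01; points are libraries, short bars are means of 3 libraries and the dotted line marks 1 CPM. From left to right stand the 6 lowest, the 3 smallest and the 6 highest log2 fold changes, and the groups overlap only in the 3 in the middle.

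A list of 25 LINC RNAs studied in cancer was read as a group. Of these, 16 are members, 10 of them past 1 CPM in both groups, and of the 10, 3 rose and 7 fell, where 48.6% of all genes past 1 CPM in both groups were higher and 39.9% lower. Besides LINC00704, the ones that rose were LINC00472, described as a tumour suppressor in breast cancer, and LINC00511, described as a partner of the repressor EZH2. LINC00472 went from 2.148, 2.645 and 2.954 CPM to 9.637, 8.433 and 8.296 CPM (log2 fold change 1.77, SE 0.108). LINC00511 went from 17.44, 16.15 and 17.11 CPM to 26.86, 26.61 and 26.85 CPM (log2 fold change 0.66, SE 0.0494). In both RNAs every shCK5 value lay above every control value. Those that fell, besides LINC00662 and LINC00665, were LINC01503, a squamous carcinoma RNA, LINC00963, LINC00707, LINC00346 and LINC00339, with log2 fold changes of -2.22, -1.48, -0.99, -0.82 and -0.49. LINC01503 had 10.91, 11.55 and 11.55 CPM in shControl and 2.62, 2.308 and 2.35 CPM in shCK5. LINC00963 had 41.48, 39.1 and 39.1 CPM in shControl and 14.59, 14.12 and 14.23 CPM in shCK5. These lie on the same stretch of chromosome 9, and both fell with no overlap of the groups. The highest edgeR adjusted p among the 10 was 2.42e-05, for LINC00707.

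A list of 8 LINC names or former LINC names with a described small peptide holds 2 members, and both rose. The list is not complete. It leaves out LINC00665, a member described above with a small peptide, which fell by 3.20 on the log2 scale. LINC00116 encodes mitoregulin, a small protein of the inner mitochondrial membrane, and had 11.06, 10.63 and 10.21 CPM in shControl and 16.0, 17.36 and 16.01 CPM in shCK5. LINC00467, described to encode a peptide that binds ATP synthase, had 5.557, 6.557 and 5.839 CPM in shControl and 13.35, 15.08 and 13.74 CPM in shCK5. The log2 fold changes were 0.63 (SE 0.0626, edgeR adjusted p = 1.32e-09) and 1.23 (SE 0.0781, edgeR adjusted p = 2.02e-13). The other 3 tested names of the list are no members and had lower levels in shCK5. NBDY, the former LINC01420, whose peptide binds the decapping complex, went from 22.84 ± 2.93 to 15.11 ± 0.689 CPM (SD, n = 3; log2 fold change -0.59). SPAAR and LINC00908 stayed under 1 CPM in both groups and had log2 fold changes of -1.30 (SE 0.514) and -1.12 (SE 0.372). SPAAR no longer passed with DESeq2 (adjusted p = 0.081) or without shControl replicate 1 (edgeR adjusted p = 0.151), shCK5 replicate 1 (0.085) or shCK5 replicate 2 (0.14).

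The shCK5-only set of 40 RNAs ran from near absence in shControl to levels just under the threshold there. In shControl, 14 of the 40 had a mean under 0.1 CPM and 13 a mean of 0.5 CPM or more. The median level in shCK5 was 2.22 CPM, and 4 RNAs reached 10 CPM. Ratios were above 10 for 25 and above 100 for 11, with a median of 13.0. The rule chose these RNAs by their level in shCK5, so these ratios describe the set and support nothing.

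LINC01234, studied in several carcinomas, was the most abundant of the 40. Its level was 0.8054, 0.7522 and 0.9755 CPM in shControl and 18.37, 18.83 and 17.05 CPM in shCK5. It is therefore present in the control libraries, 21.4-fold lower. It lies on chromosome 12 at 113679459 to 113773683 (minus strand).

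LINC00941 and LINC01116 were nearly absent from the control libraries. LINC00941, described as a repressor of keratinocyte differentiation, had 2 counts over the 3 shControl libraries, both in replicate 1, and 13.55, 14.41 and 14.07 CPM in shCK5. The ratio was 1580, with an exact 95% interval of 438 to 13100 that covers counting error only. Without shControl replicate 1 no count remained and the ratio became at least 707, with the floor set at 3 counts over the group, and without replicate 2 it was 1020. LINC01116, on chromosome 2 at 176629589 to 176637931, had 3 counts in shControl, all in replicate 1, and 14.65, 12.6 and 14.57 CPM in shCK5. The ratio was 1050 (interval 359 to 5100), at least 704 without shControl replicate 1 and 680 without replicate 2. Both RNAs are alike in that every shCK5 library held over 12 CPM, while 2 control libraries held no count.

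LINC00702 had 1.074, 1.028 and 0.7525 CPM in shControl and 10.93, 11.3 and 10.56 CPM in shCK5, a ratio of 11.5. Its values pass 1 CPM in 2 control libraries, but the rule uses the mean of the 3. LINC01605 had 0.2416, 0.1254 and 0.1394 CPM in shControl and 8.931, 9.521 and 8.6 CPM in shCK5, a ratio of 53.4. LINC00452 had 0.6711, 0.5516 and 0.5295 CPM in shControl and 8.251, 8.774 and 8.448 CPM in shCK5, a ratio of 14.5. All 3 were detected in every control library. LINC01638, described to stabilise MYC in triple-negative breast cancer, had 2 counts in shControl, both in replicate 3, and 4.585, 4.367 and 4.162 CPM in shCK5. Its ratio was 495 (interval 137 to 4090), at least 225 without shControl replicate 3 and 320 without replicate 2.

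Only LINC00926 and LINC01615 had no count in any control library (named after their values were seen). LINC00926 had 3.086, 2.649 and 3.429 CPM in shCK5, at least 230-fold above the floor of 3 counts over the control group. LINC01615 had 1.89, 2.203 and 1.991 CPM, at least 153-fold. Both floors rest on the depth of all 3 control libraries, and without replicate 2 they fall to 149-fold and 98.8-fold. The absence is not particular to LINC00926 at its locus. TCF12, its nearest protein-coding gene, lies 1084 bases away on the same strand. TCF12 averaged 69.25 CPM in shCK5 against 0.00929 CPM in shControl (log2 fold change 12.69). No SE is given, as shControl held almost no reads of TCF12. Whether reads of LINC00926 run on from TCF12 was not tested. THBS2, the nearest to LINC01615, was not among the genes tested. At the low end, LINC00324, of the cancer list, had 0.4832, 0.7021 and 0.5853 CPM in shControl and 1.033, 1.075 and 1.078 CPM in shCK5. For LINC01337 the groups overlapped, with 0.7773 to 0.9933 CPM in shControl and 0.8818 to 1.466 CPM in shCK5, the only such case among the 40.

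The shControl-only set of 73 RNAs was larger and less extreme. None was without a count in shCK5, 12 had a mean there under 0.1 CPM and 21 a mean of 0.5 CPM or more. The median level in shControl was 2.06 CPM, and 5 RNAs reached 10 CPM. Ratios were above 10 for 33 and above 100 for 1, LINC02159 (5.077 against 0.02718 CPM), with a median of 8.68. That ratio, 187, was 394 without shCK5 replicate 3.

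LINC01133, described as an inhibitor of epithelial-mesenchymal transition, was the most abundant. Its level was 45.37, 43.45 and 45.07 CPM in shControl and 0.9826, 1.154 and 0.9678 CPM in shCK5. By column total its mean in shCK5 lies just under 1 CPM, which places it in this set and not among the 106, although it remains detectable in every library. The ratio was 43.1. It lies on chromosome 1 at 159961218 to 159984750 (plus strand), and its promoter, printed above, is poor in CpG.

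LINC02015 had 26.3, 29.03 and 29.82 CPM in shControl and 0.3779, 0.3672 and 0.3595 CPM in shCK5, a ratio of 77.1. LINC00689 had 22.27, 21.83 and 23.54 CPM in shControl and 0.4283, 0.341 and 0.4148 CPM in shCK5, a ratio of 57.1. These values are as even within a group as those of the most abundant RNAs. LINC01667 had 25.62, 23.98 and 25.58 CPM in shControl and 0.4409, 0.6951 and 0.7743 CPM in shCK5. LINC01515 had 11.7, 11.76 and 11.12 CPM in shControl and 0.3779, 0.5377 and 0.719 CPM in shCK5. LINC01315 had 8.886, 9.904 and 9.49 CPM in shControl and 0.1764, 0.2098 and 0.1936 CPM in shCK5. Their ratios were 39.4, 21.2 and 48.8, and all 3 were still detected in every shCK5 library. LINC01269 and LINC01331 were the only ones of the 73 whose groups overlapped, at about 1 CPM in both.

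**Figure D3:**
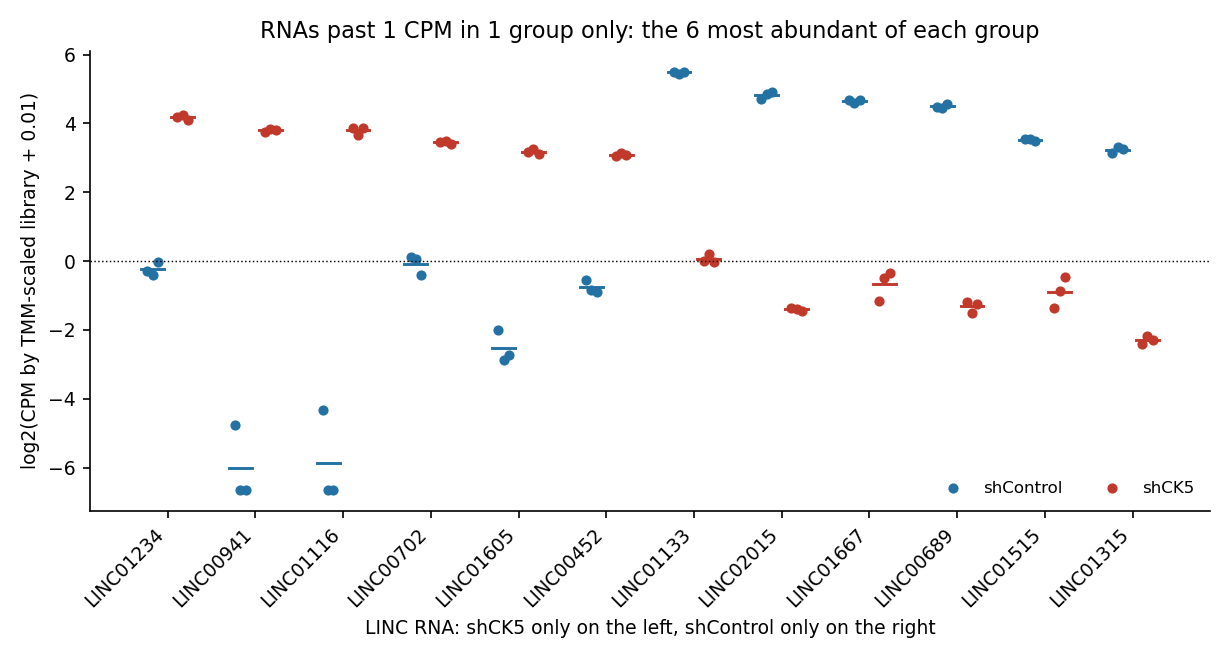
Level of the 6 most abundant RNAs past 1 CPM only in shCK5 (left) and the 6 most abundant past 1 CPM only in shControl (right), in each of the 6 libraries, as log2 of TMM-scaled CPM plus 0.01; points are libraries, short bars are means and the dotted line marks 1 CPM. LINC00941 and LINC01116 stand out by having no count in 2 control libraries, the lowest points drawn.

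Values at the threshold show how finely the rule cuts. Just inside were LINC00880, LINC00324 and LINC01117, with means of 1.001, 1.013 and 1.029 CPM by column total in shCK5. Just outside were LINC01561, LINC00672 and LINC01725. LINC00672 had 0.9729 CPM and LINC01725 had 0.9554 CPM in shControl, and LINC01561 fell short of 1 CPM in shCK5 by less than 0.1% with no count in shControl.

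Reaching 1 CPM in only 1 group was more frequent among LINC RNAs than among protein-coding genes, and this depended on level. Of all 219 RNAs, 48.4% passed 1 CPM in both groups, against 86.2% of 12218 protein-coding genes past the same level. Where the higher group had 1 to 2 CPM, the shares were 16.1% (10 of 62) and 16.9%. From 2 to 5 CPM they were 49.2% (31 of 63) and 50.4%. At these low levels LINC RNAs and protein-coding genes were alike in this measure. From 5 to 20 CPM, 65.3% of the LINC RNAs (47 of 72) and 83.5% of the protein-coding genes passed in both groups. At 20 CPM or more the shares were 81.8% (18 of 22) and 97.5%. That last range has no upper end, and levels within it were not matched between LINC RNAs and protein-coding genes. The 4 RNAs above 20 CPM that passed in shControl only were LINC01133, LINC02015, LINC01667 and LINC00689, and no RNA above 20 CPM passed in shCK5 only. The rule fixes what counts as a member, so these shares carry no test.

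**Figure D4:**
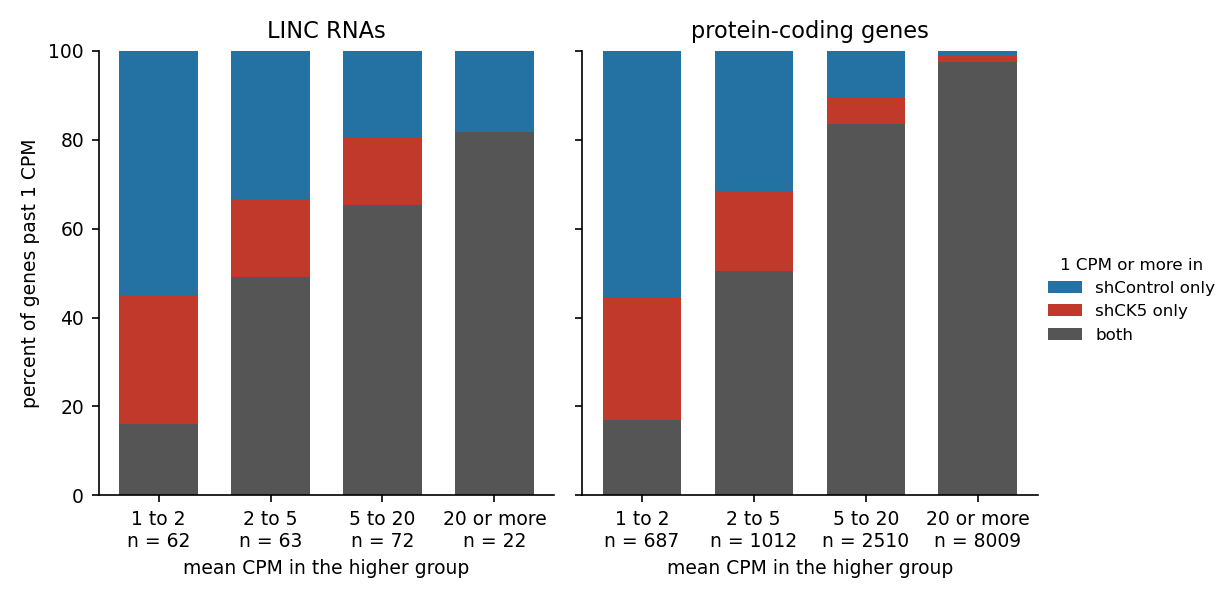
Share of the LINC RNAs (left) and of the protein-coding genes (right) that reach 1 CPM in both groups, in shCK5 only or in shControl only, by the mean CPM of the higher group; bars start at 0 and n is the number of genes in each bar. Below 5 CPM the panels look alike, while above 5 CPM the grey part is smaller for LINC RNAs (65.3% and 81.8%) than for protein-coding genes (83.5% and 97.5%). The last range has no upper end, and levels within it were not matched.

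Some members lay close to other members. Within 500 kb of another, 56 of the 219 formed 25 loci, 6 of them with 3 or more, and in 17 of the 25 loci all members were higher in the same group. Neither count was set beside other expressed genes, so both are descriptions, and most loci are pairs. On chromosome 3, LINC00501, LINC00578 and LINC02015 lie between 177294442 and 177899224 and all belong to the shControl-only set. LINC00578 had 7.087, 6.469 and 6.717 CPM in shControl and 0.8818, 0.6164 and 0.9125 CPM in shCK5. LINC00501 had 1.664, 1.153 and 1.519 CPM in shControl and 0, 0.03934 and 0.02765 CPM in shCK5. The 3 neighbours thus stood apart in the same direction, with ratios of 64.7, 8.41 and 77.1 in their order on the chromosome. The first, that of LINC00501, rests on few shCK5 counts and was 42.7 without shCK5 replicate 1 and 109 without replicate 2.

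On chromosome 10, LINC00702 and LINC00704 lie within 477014 bases and were both higher in shCK5. On chromosome 2, LINC01123, LINC00116 and LINC01106 lie within 397380 bases and all rose. LINC01123 went from 4.027, 4.237 and 3.693 CPM to 19.39, 17.8 and 18.02 CPM (log2 fold change 2.20, SE 0.0748, edgeR adjusted p = 4.02e-19). LINC01106 went from 5.06, 5.153 and 4.78 CPM to 23.52, 21.72 and 22.37 CPM (log2 fold change 2.17, SE 0.066, edgeR adjusted p = 3.98e-20). Both rose by far more than LINC00116 between them. The exons of LINC01123 and LINC01106 lie over ZBTB45P1 and ZBTB45P2, and their nearest protein-coding genes lie 18506 and 18492 bases away. As the handling of multi-mapped reads is not given, whether both rises rest on separate reads was not tested. LINC01116 and LINC01117, also on chromosome 2, share exonic bases and both belong to the shCK5-only set, so their reads cannot be told apart without strand. Other loci were split: LINC00552 belonged to the shControl-only set, while LINC00452, within 180334 bases on chromosome 13, belonged to the shCK5-only set. These loci and the divergent pairs below were named after their values were seen.

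The nearest protein-coding gene was not used by the rule, and its change was read from the same fit. Of all 13816 protein-coding genes tested, 45.5% were higher and 42.4% lower in shCK5. Next to the shCK5-only RNAs lay 32 tested genes, of which 20 were higher and 10 lower, with a median log2 fold change of 0.89. Next to the shControl-only RNAs lay 55 tested genes, of which 14 were higher and 39 lower, with a median of -0.78. The median of all protein-coding genes tested was 0.04, so the neighbours of both sets leaned towards the side of their RNA. Next to the RNAs past 1 CPM in both groups the lean was smaller. Of 29 genes next to those that rose, 17 were higher and 8 lower (median 0.34), and of 37 next to those that fell, 16 were higher and 16 lower (median -0.06). Over the 85 pairs with an RNA past 1 CPM in both groups, Pearson's r between the log2 fold changes of RNA and neighbour was 0.222 and Spearman's rho 0.17. Over all 176 pairs they were 0.431 and 0.374, but there the other RNAs had been chosen by their level in 1 group. Pairs share the same 6 libraries, some share a neighbour, and genes are not independent replicates. Without pairs that share exonic bases, r was 0.422 and rho 0.357 over 161 pairs.

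**Figure D5:**
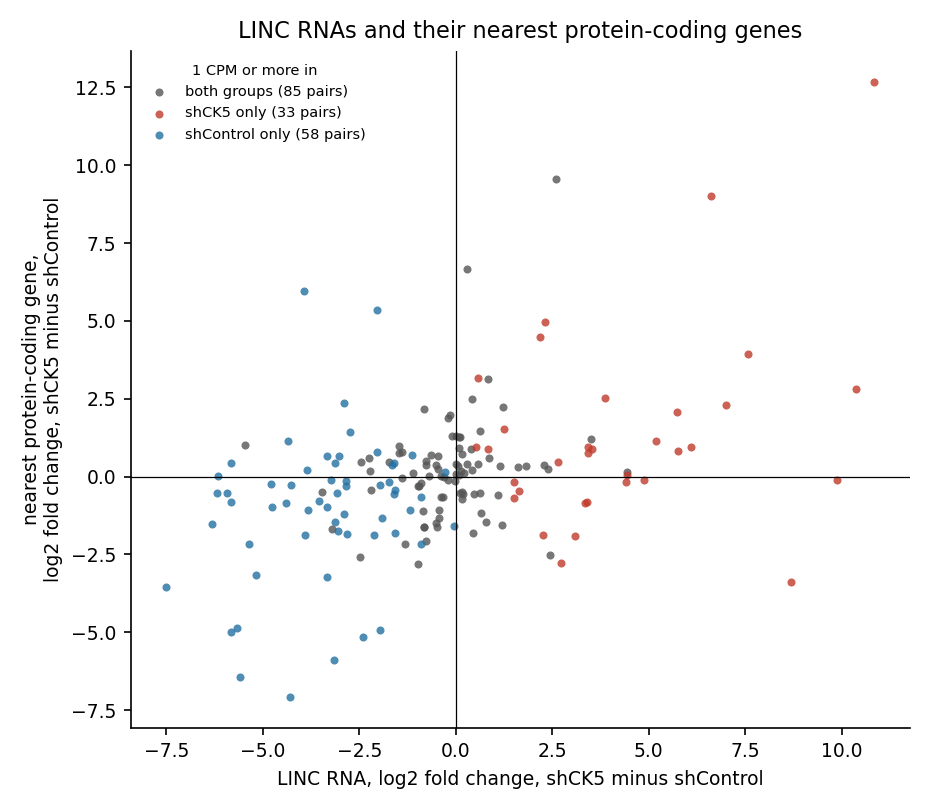
Log2 fold change of each LINC RNA (horizontal axis) and of its nearest protein-coding gene (vertical axis), shCK5 minus shControl, for 176 pairs; each point is a pair, coloured by the groups in which the RNA reaches 1 CPM. Blue points (58 pairs, shControl only) lie mostly below 0 on the vertical axis and red points (33 pairs, shCK5 only) mostly above it, with exceptions on both sides.

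LINC02009 lies 3527 bases from CCRL2, an atypical chemokine receptor gene, and the pair rose together. CCRL2 went from 0.02694 ± 0.0279 to 21.19 ± 0.724 CPM (SD, n = 3; log2 fold change 9.55, edgeR adjusted p = 1.71e-24), a far larger change than that of LINC02009. No SE is given for CCRL2, as shControl held almost no reads of it. LINC01315 lies 11174 bases from NFAM1, a gene of an immunoreceptor signalling protein, which fell from 15.47 ± 1.38 to 0.1753 ± 0.00889 CPM (SD, n = 3; log2 fold change -6.45, SE 0.141, edgeR adjusted p = 4.01e-23). LINC00243 lies 45762 bases from DDR1, a collagen receptor gene of epithelial cells, which fell from 603.3 ± 4.89 to 101.3 ± 1.97 CPM (SD, n = 3). The log2 fold changes of LINC00243 and DDR1 were close, -2.47 and -2.57. LINC00452 lies 24239 bases from GAS6, a ligand of the receptor AXL, which rose from 21.92 ± 2.26 to 125.5 ± 2.94 CPM (SD, n = 3). LINC00941 lies 40507 bases from CAPRIN2, which rose by 2.81 on the log2 scale, and LINC00467 lies 7857 bases from TRAF5, which rose by 2.23. LINC00665 lies 2735 bases from the zinc finger gene ZFP14, which fell by 1.67 on the log2 scale, and LINC00346 lies 8289 bases from ANKRD10, which fell by 1.62. LINC00689 overlaps VIPR2, a receptor gene for vasoactive intestinal peptide, and shares exonic bases with it, so reads of the pair cannot be told apart (VIPR2 log2 fold change -5.00, SE 0.227).

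Other neighbours went against their RNA. LINC01606 fell, and IMPAD1, 148845 bases away, rose from 61.64 ± 2.24 to 125.6 ± 1.18 CPM (SD, n = 3). LINC01443 rose, and ANKRD30B, 93529 bases away, fell by 2.51 on the log2 scale. LINC01638 was near absent from shControl, where MN1, 523550 bases away, was at 16.53 ± 0.454 CPM, against 1.563 ± 0.207 CPM in shCK5 (SD, n = 3; log2 fold change -3.40). Next to LINC01234 and LINC01116, with ratios of 21.4 and 1050, RBM19 and MTX2 had log2 fold changes of -0.18 and -0.10. MTX2 lies 291564 bases from LINC01116, and its call (edgeR adjusted p = 0.0199) was lost under several alternatives, given at the end. AKR1E2, the nearest gene to LINC00704, lies 108475 bases away and did not pass the threshold (log2 fold change 0.15, SE 0.0731, edgeR adjusted p = 0.0632). AKR1E2 did pass without shControl replicate 3 (edgeR adjusted p = 0.039) or shCK5 replicate 1 (0.0278).

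In divergent pairs, RNA and neighbour start within 1000 bases of each other on opposite strands, and 16 members had such a neighbour. Of these, 13 passed 1 CPM in both groups, 3 were in the shControl-only set and none in the shCK5-only set. Among the 13 RNAs, 3 rose and 10 fell. Of all genes past 1 CPM in both groups, 48.6% were higher and 39.9% lower, and whether divergent RNAs differ from these was not tested. In 7 of the 13 pairs the RNA and its neighbour were called in the same direction and in 5 in opposite directions. No such split was computed for other pairs of genes. LINC01137 fell by 1.32 on the log2 scale and its partner ZC3H12A, a gene of an RNA-degrading enzyme, by 2.16. LINC01134 and C1orf174 rose by 1.62 and 0.32. By contrast, LINC01135 fell by 1.46 while JUN, an AP-1 subunit gene that starts 801 bases from it, rose by 0.97. LINC01125 fell by 2.24 while ACTR1B, which starts 110 bases away, rose by 0.60. A shared start region did not come with a shared direction in every pair.

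Genes of the machinery that removes nuclear noncoding RNA were called about as often as other genes. In a list of 20 genes of the nuclear exosome and its adaptors, 18 were tested, and 12 were higher, 4 lower and 2 did not pass, with a median log2 fold change of 0.38. Over all genes tested 82.7% were called, 40.9% as higher and 41.7% as lower, and the median was -0.0194. EXOSC2, a cap subunit of the exosome, went from 32.38 ± 0.725 to 73.23 ± 1.34 CPM (SD, n = 3; log2 fold change 1.18, SE 0.0359), and the catalytic subunit EXOSC10 from 46.88 ± 0.449 to 100.8 ± 2.98 CPM (SD, n = 3; 1.10, SE 0.033). MPHOSPH6, an exosome-associated protein gene, had the lowest value (log2 fold change -1.40, SE 0.0375). RBM7 followed but did not pass (-1.31, SE 0.618, edgeR adjusted p = 0.0546), with means of 0.2115 CPM in shControl and 0.08509 CPM in shCK5. The next lowest was the poly(A) polymerase gene PAPD5 (-0.96, SE 0.0454). EXOSC3 and EXOSC5 are listed at 0 in all 6 libraries. They are core subunits that dividing cells need, so these rows are not taken to mean absence.

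Of 14 genes of Integrator, a complex that ends transcription of many noncoding RNAs, 4 were higher, 6 lower and 4 missed the threshold (median log2 fold change -0.08), again beside 40.9% higher and 41.7% lower among all genes tested. The extremes were INTS2 (1.22, SE 0.0509) and INTS14 (0.85, SE 0.0521) on one side and INTS1 (-1.21, SE 0.0279) and INTS8 (-0.45, SE 0.0413) on the other. INTS1 fell from 324.4 ± 4.9 to 140.1 ± 3.88 CPM (SD, n = 3). The relation of these changes to those of the LINC RNAs was not tested.

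Long noncoding RNAs without a LINC number also moved both ways. In a list of 35 well-studied names, 29 were tested, and 12 were higher, 16 lower and 1 missed the threshold (median log2 fold change -0.29), beside the same 40.9% and 41.7% over all genes. MIR100HG, the host of miR-100 and let-7a-2, went from 0.2195 ± 0.07 to 66.64 ± 3.24 CPM (SD, n = 3; log2 fold change 8.22, SE 0.0943). LUCAT1, a stress-induced RNA, went from 0.9353 ± 0.337 to 12.08 ± 0.901 CPM (SD, n = 3; 3.70, SE 0.142). H19, an imprinted RNA, and HOTAIR, transcribed from the HOXC cluster, had the lowest values. H19 fell from 31.98 ± 0.75 to 0.2892 ± 0.0263 CPM (SD, n = 3; log2 fold change -6.78, SE 0.0969), and HOTAIR from 29.17 ± 2.02 to 0.6701 ± 0.0347 CPM (SD, n = 3; -5.44, SE 0.0933). The edgeR adjusted p values of these 4 were at most 5.84e-18. The SEs of MIR100HG, H19 and HOTAIR rest on 50, 66 and 153 counts in the group where each is low and may be too small.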

How the data were processed

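The data are 6 RNA sequencing libraries, 3 shControl and 3 shCK5. Per the submitters' processing notes, reads passed through cutadapt, STAR, SAMtools and Cufflinks (versions not listed) on build GRCh38. Not given in the sources used here are the way reads were counted, the strand setting, the annotation release and what happened to multi-mapped reads. The authors deposited raw counts per gene name in 1 table without normalization, and columns were assigned to libraries by name. Even numbers made up 63.1% to 65.0% of counts above 20, a share that arises when both mates of a fragment are counted, and intervals from counts would then be too narrow.

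Counts were analysed with edgeR 4.0.16 in R 4.3.3: filterByExpr, TMM factors, quasi-likelihood test with no covariate, Benjamini-Hochberg adjustment over the 19567 genes tested, threshold 0.05. All 219 members passed the filter, those past 1 CPM in 1 group through the group where they are high. Log2 fold changes are shCK5 minus shControl. Floors are 3 counts over a group (0.0133 CPM in shControl, 0.0132 CPM in shCK5), and ratios on 1 to 3 counts carry exact 95% intervals; both cover counting error only, as reads have no molecular identifiers. The procedure was also run on simulated counts in which few genes differed. In the data 82.7% of genes tested were called, so that run does not show how reliable the calls are here. Members were placed by GENCODE v29 (207 by name, 10 by a later symbol) or RefSeq (2); whether the authors used that release is unknown. The neighbour is the nearest protein-coding gene on the chromosome.

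The members and lists were chosen with earlier results of these data known. Genes were named by rule: for RNAs past 1 CPM in both groups the 6 highest and 6 lowest log2 fold changes past the threshold, the 4 with most counts and the 3 smallest changes; for the others the 6 most abundant of each set; all members of the cancer and small peptide lists; the 3 names on each side of the level threshold; the 2 extremes on each side of the other lists; and neighbours of named members. Alternatives were library size alone, DESeq2 1.42.0, no low-count filter, leaving out each library, a replicate block, other CPM thresholds and scaling, neighbours within 50 kb and, chosen after seeing the data, neighbours without shared exonic bases. Replicate numbers did not pair the libraries.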

Additional observations from a re-analysis of the deposited data

How the results depend on the processing

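Apart from KRT5, 104 genes with a test were recomputed, and none of those past the threshold changed direction. Calls changed for 4. SPAAR (adjusted p up to 0.151) was lost under 4 alternatives and MTX2 (up to 0.0947) under 6, while AKR1E2 (without shControl replicate 3 or shCK5 replicate 1) and ZNF567 (library size alone, log2 fold change -0.34) were gained. The log2 ratio of mean levels of LINC02015 moved to -6.40 with library size alone. Counting only neighbours within 50 kb left 14 higher and 6 lower genes next to the shCK5-only RNAs, and 9 higher and 23 lower next to the shControl-only RNAs, since fewer genes were counted. With library size alone the median of all genes moved to -0.156, 7167 genes were higher and 9118 lower, and of the 106 RNAs 32 rose and 52 fell. With DESeq2 36 rose and 43 fell. The same-numbered libraries correlated in their deviations by -0.00606 to 0.00752, and with the replicate number as a block 37 rose and 45 fell. Leaving out 1 library gave 35 to 38 that rose and 43 to 46 that fell. Thresholds of 0.5 and 2 CPM gave 301 and 157 members, TMM-scaled CPM 220. RNAs on few counts in 1 group are limited by depth, and their ratios depend on single libraries.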
